A study of Rattus norvegicus with 8 samples.

Results

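The transcripts described here encode the machinery that makes and loads peptides for major histocompatibility complex (MHC) class I molecules. They were B2m, RT1-CE16, Tap1, Tap2, Tapbp, Psmb8, Psmb9, Psmb10, Psme1 and Psme2, taken wherever the platform annotation gave a probe set exactly 1 of these 10 symbols. This gave 13 of the 31042 tested probe sets. B2m, Tap1 and Psme1 had 2 probe sets each, called the first and the second in order of deposited mean, and the other 7 genes 1 each. RNA of whole blood from 2 groups of male Wistar rats was measured on Affymetrix expression arrays. The 4 mulberry arrays came from rats fed a high-fat diet (Quick fat) with 1% mulberry leaf powder, and the 4 high-fat arrays from rats fed the same diet without the powder. All rats were bought at 7 weeks of age, acclimated for 1 week on a normal diet (CE-2), fed their diet for 8 weeks and bled on day 56 after overnight fasting. Each diet was given to 10 rats. Replicates are labelled biological, but which rats they came from, and whether RNA was pooled, is not stated, so each p-value rests on the spread from array to array.

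Class I molecules show peptides from inside the cell to cytotoxic T cells, and nearly all nucleated cells carry them. The proteasome cuts proteins into peptides. In leukocytes and in cells exposed to interferon, the inducible catalytic subunits Psmb8, Psmb9 and Psmb10 take the places of Psmb5, Psmb6 and Psmb7, which forms the immunoproteasome, and Psme1 and Psme2 form a cap that opens its entrance. The transporter made of Tap1 and Tap2 carries peptides into the endoplasmic reticulum, where tapasin, the product of Tapbp, holds the empty class I molecule next to it. The class I molecule is a heavy chain, such as that of RT1-CE16, paired with beta-2 microglobulin, the product of B2m.

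Of the 10 genes, 6 lie on rat chromosome 20, among them Tap2, Psmb8, Tap1 and Psmb9, which follow one another in RefSeq (assembly GRCr8) with no protein-coding gene between them. Tap1 and Psmb9 are read in opposite directions from starts 456 bases apart. Many of these genes are known interferon targets, so the 250 bases before each RefSeq start were searched on both strands for GAAA, any 2 bases and GAAA again, the core of the interferon-stimulated response element. It was found before 6 of the 10 genes, against 3.41% of all 33469 promoters of that length. Stretches of 90 bases around these matches are shown on the strand of the gene, with the matches in capitals, because they are a sequence feature that the choice of genes did not use.
B2m (GRCr8 chr3:129549140-129549229, plus strand): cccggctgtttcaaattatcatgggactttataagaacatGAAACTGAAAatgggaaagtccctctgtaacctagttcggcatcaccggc
Tap1 (GRCr8 chr20:4668615-4668704, minus strand): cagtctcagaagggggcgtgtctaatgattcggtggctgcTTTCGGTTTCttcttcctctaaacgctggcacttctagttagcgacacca
Tap2 (GRCr8 chr20:4652297-4652386, minus strand): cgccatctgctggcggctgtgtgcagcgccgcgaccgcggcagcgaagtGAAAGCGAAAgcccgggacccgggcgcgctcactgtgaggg
Tapbp (GRCr8 chr20:4967878-4967967, minus strand): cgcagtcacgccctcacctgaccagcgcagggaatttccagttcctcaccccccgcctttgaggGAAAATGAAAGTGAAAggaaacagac
Psmb10 (GRCr8 chr19:50743293-50743382, minus strand): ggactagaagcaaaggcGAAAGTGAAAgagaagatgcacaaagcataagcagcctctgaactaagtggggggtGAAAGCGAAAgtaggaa
Psme2 (GRCr8 chr15:33052755-33052844, minus strand): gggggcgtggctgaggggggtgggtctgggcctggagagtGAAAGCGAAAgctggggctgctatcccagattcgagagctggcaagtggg
In Tapbp 2 matches overlap, and in Psmb10 2 matches lie apart. The Tap1 match reads as the reverse complement of the motif and lies 112 to 121 bases before the start of that gene, in the stretch that separates Tap1 from Psmb9. A gamma-activated site written TTCNNNGAA was found before 1 of the 10 genes, Psmb8, and before 7.67% of all promoters. These matches are letters in a window and were not tested for binding. The 250 bases before RT1-CE16, the class I heavy chain of this set, held neither motif as spelled here. Near matches were not searched for, so an interferon element of another spelling could have been missed. These 250 bases hold agtttcacttct, in which the reverse complement of GAAA is followed by 2 bases and ttct. This is close to the first motif read on the other strand, so the search does not show that the promoter lacks such an element. Whether it responds to interferon was not tested. The 250 bases are shown because RT1-CE16 had the widest difference between the diets in this set.
RT1-CE16 (GRCr8 chr20:3265444-3265693, minus strand): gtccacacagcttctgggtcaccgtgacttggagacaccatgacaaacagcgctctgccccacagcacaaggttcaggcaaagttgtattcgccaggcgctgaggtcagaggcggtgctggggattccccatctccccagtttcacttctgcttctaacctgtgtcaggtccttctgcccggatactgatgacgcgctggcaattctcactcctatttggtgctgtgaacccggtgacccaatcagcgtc

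The deposited values were compressed between arrays. The diet means of every member were equal to 2 decimals of the log2 scale, from 6.22 for a Tap1 probe set to 14.20 for a B2m probe set, and levels of different probe sets are not compared. The SD of a probe set over the 8 arrays was 5.31e-06 in the median of all tested probe sets and 1.66e-05 in the median of the 13 members. Deviations are therefore given in SD units, in which 0 is the probe set's mean over the 8 arrays and 1 is its SD over them. A difference between the diets is mulberry minus high-fat in these units and cannot be larger than 1.87 in size with 4 arrays a diet. The spread itself varied widely: 10 of the 13 members had an SD above the median of all probe sets, and 6 lay in the top 10%. RT1-CE16 had an SD of 0.000472, Psmb8 of 0.000256 and Tap2 of 0.000167, against 7.16e-07 for the first B2m probe set. In whole blood, fewer cells of a type and less RNA per cell cannot be told apart.

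**Figure D1:**
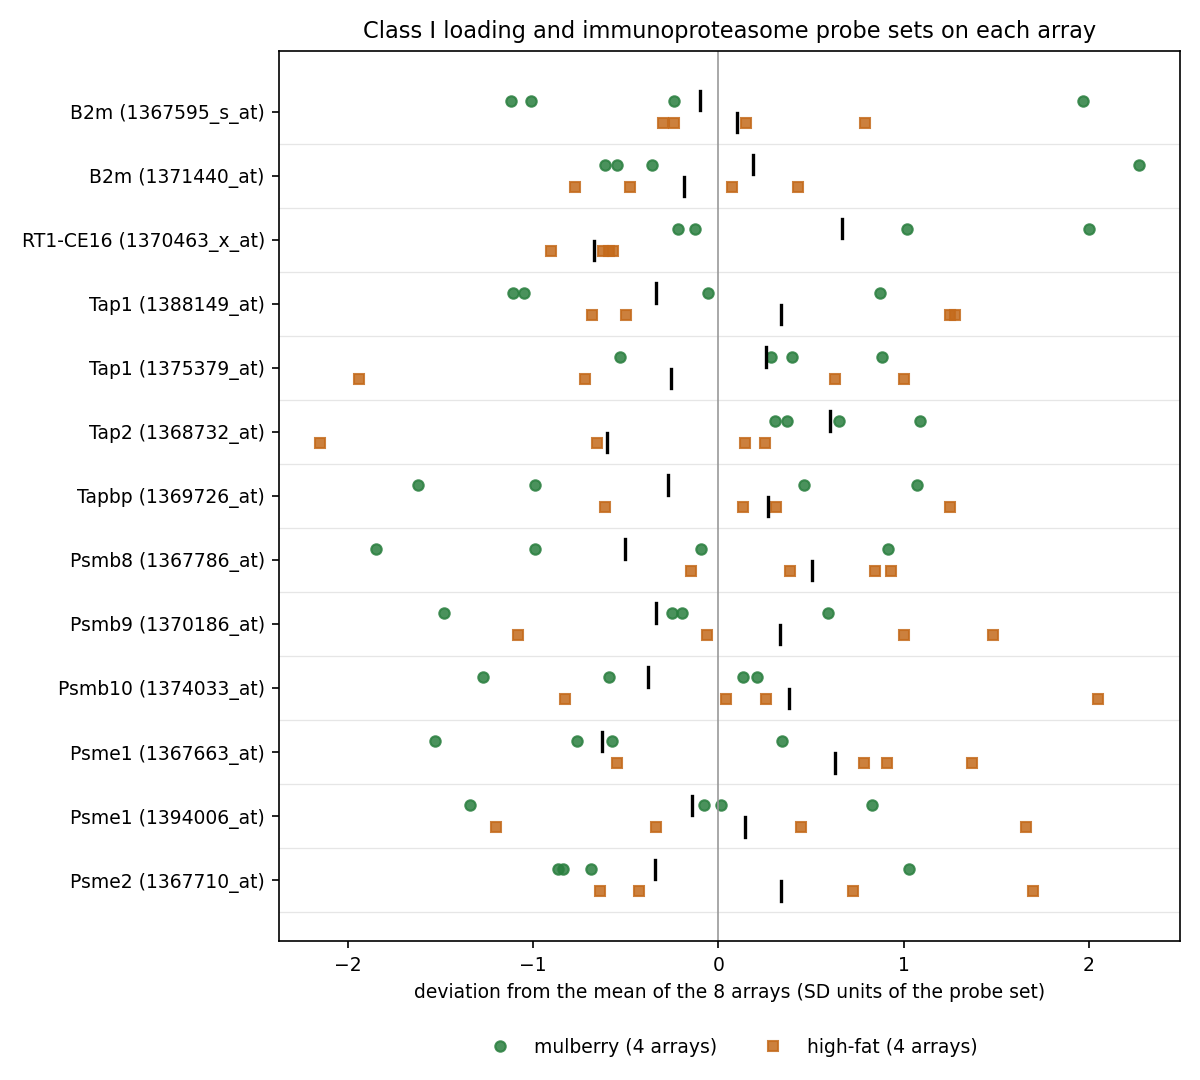
Deviation of each of the 13 probe sets from its mean over the 8 arrays, in SD units, with 1 point per array, mulberry arrays as circles above high-fat arrays as squares, and black ticks at the diet means. In RT1-CE16 and Tap2 all 4 mulberry arrays lie above all 4 high-fat arrays.

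Between the diets, 9 of the 13 probe sets had a lower mean in the mulberry arrays and 4 a higher one, and no member passed the test. Over all probe sets 47.3% had a lower mean in mulberry. The median difference was -0.54 SD units over the members and 0.0559 over all probe sets tested. By limma with Benjamini-Hochberg adjustment over all probe sets, 0 members and 0% of all probe sets were called at 0.05, and the adjusted p of each member was 1. At an unadjusted p under 0.05 limma gave 1 member, RT1-CE16, against 4.36% of all probe sets. The groups did not overlap in 2 of 13 members, both with mulberry above, against 1.6% of all probe sets with mulberry above and 2.52% in either direction. The count of lower means depended on the scaling. Quantile normalization left 2 lower members and gave 5 a difference of 0. Of all 31042 probe sets it left 13840 lower and gave 8465 a difference of 0. Centring each array on its median also left 2 members lower, against 952 of all 31042 probe sets. The hybridization controls, bacterial transcripts added in fixed amounts, averaged 0.558 ± 0.635 SD units in mulberry and -0.558 ± 0.856 in high-fat arrays (SD; exact permutation p = 0.114, n = 4 each). Adjusting for these controls also left 9 members lower, but not the same 9. The first B2m probe set turned to 0.761 and the second Tap1 probe set to -0.261. Of all 31042 probe sets, 15800 were lower in that model.

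The 2 chains of the class I molecule gave different pictures. RT1-CE16, the heavy chain gene, stood at 2, -0.217, 1.02 and -0.125 SD units in mulberry replicates 1 to 4, against -0.568, -0.622, -0.59 and -0.905 in high-fat replicates 1 to 4. Every mulberry array lay above every high-fat array, but mulberry replicates 1 and 3 stood well above the other two, and the high-fat arrays lay close together. The means were 0.671 ± 1.05 in mulberry and -0.671 ± 0.158 in high-fat arrays (SD, n = 4 each). The difference was 1.34 ± 0.5 (SE), with an unadjusted p of 0.0322 and an adjusted p of 1 by limma and a two-sided exact permutation p of 0.0286, the smallest that 70 assignments allow. It was 1.34 under quantile normalization and 1.38 under median centring, and ran from 1.25 to 1.52 when each array was left out in turn. Adjusted for the hybridization controls it was 0.824. The probe set is of a kind (x in its name) that can bind several similar transcripts, so its signal may include other class I genes. A further probe set annotated to RT1-CE16 together with other class I genes was left out by the rule.

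B2m, the invariant light chain, had 2 probe sets that differed in sign. The first stood at -1.01, -1.12, -0.241 and 1.97 in mulberry replicates 1 to 4, against 0.793, 0.15, -0.241 and -0.297 in high-fat replicates 1 to 4. The second stood at -0.55, -0.359, -0.614 and 2.27 in the mulberry arrays, against -0.774, 0.429, -0.479 and 0.073 in the high-fat arrays. In both probe sets mulberry replicate 4 was the highest of the 8 arrays and the other 3 mulberry arrays were below the mean. The differences were -0.203 ± 1.18 and 0.376 ± 0.703 (SE), with limma adjusted p of 1 for each, and both were 0 after quantile normalization. Without mulberry replicate 4 they were -1.36 and -0.751.

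**Figure D2:**
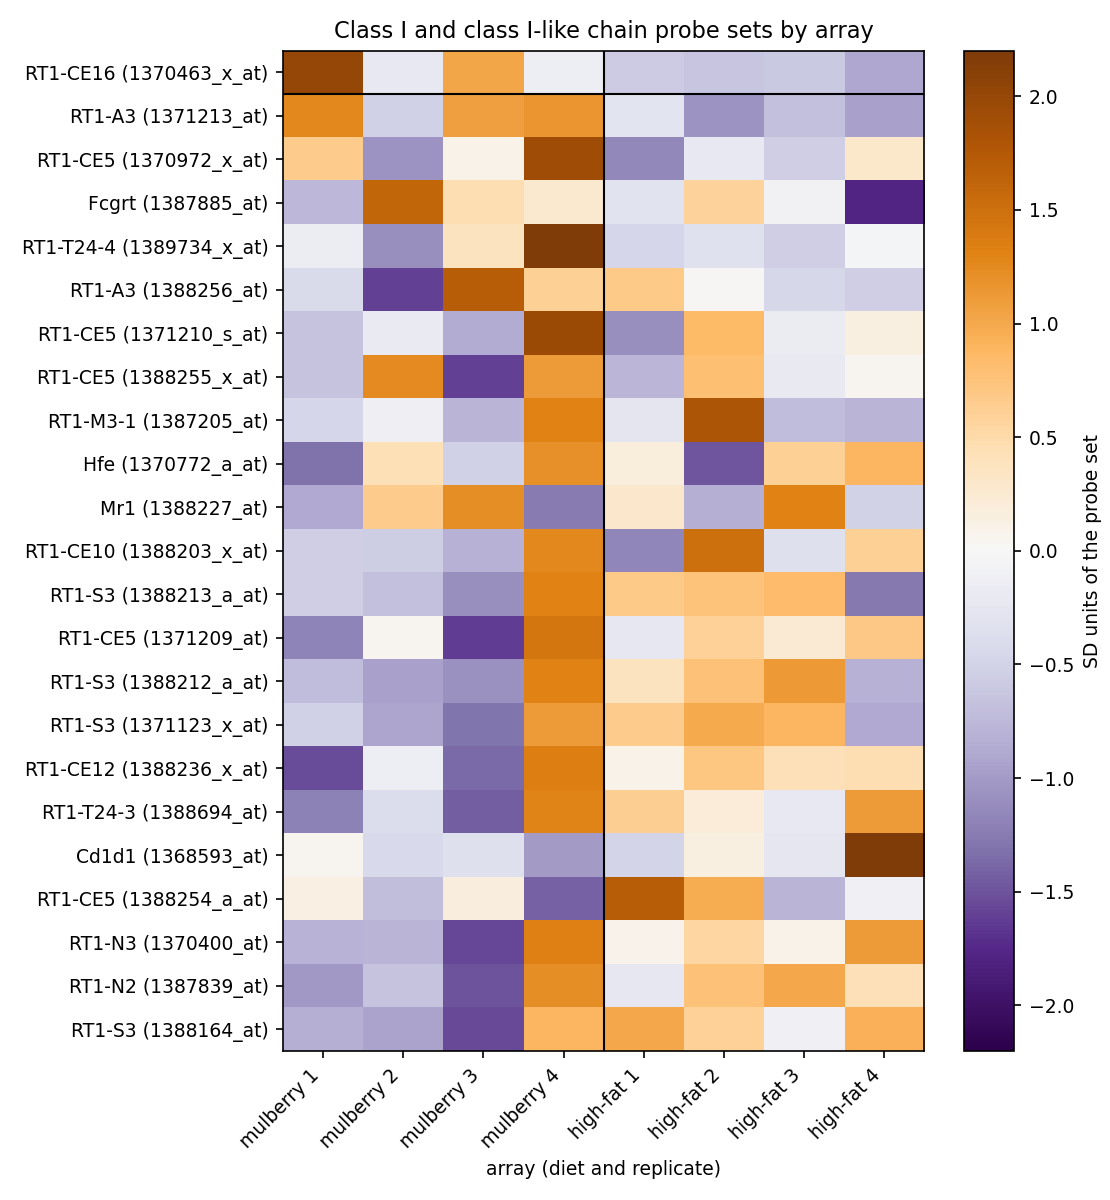
Deviation in SD units (colour) of RT1-CE16, top row, and of 22 probe sets of other class I and class I-like chains on each array, mulberry arrays left of the line and high-fat arrays right of it. RT1-CE16 is highest in mulberry replicates 1 and 3, where RT1-CE12 and RT1-T24-3 are lowest. The RT1-A3 probe set of higher mean lies above its own mean in these replicates.

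The other class I and class I-like chains set RT1-CE16 beside its relatives. Of 28 such genes listed, 14 had a probe set that named 1 gene, 22 probe sets in all, 15 of them with a lower mean in mulberry (9 after median centring), and none passed the test. RT1-CE12 stood at -1.54, -0.122, -1.37 and 1.35 in mulberry replicates 1 to 4, against 0.0967, 0.712, 0.415 and 0.458 in high-fat replicates 1 to 4. It was lowest in the mulberry arrays in which RT1-CE16 was highest. RT1-T24-3 likewise stood at -1.19, -0.394, -1.43 and 1.3 in mulberry arrays, against 0.624, 0.199, -0.22 and 1.11 in high-fat arrays. The RT1-A3 probe set of higher mean instead stood at 1.27, -0.528, 1.08 and 1.16 in mulberry replicates 1 to 4. Over the 8 arrays its r with RT1-CE16 was 0.815, against -0.827 for RT1-CE12 and -0.753 for RT1-T24-3. Mulberry replicates 1 and 3 were the 2 lowest arrays in 5 of the 22 probe sets, against 2.65% of all probe sets, a feature chosen after its values were seen. Mulberry replicate 4 was the highest array in 12 of the 22, against 10.5% of all. Probe sets of these genes can share transcripts and are not independent. RT1-A, which also has a probe set of its own, was not on the list and is not in these counts.

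With 1 probe set a gene, the one of highest mean, RT1-A3 and RT1-N2 had the smallest unadjusted p among those chains. The RT1-A3 probe set of higher mean ranged from -0.528 to 1.27 in mulberry arrays, against -1.06 to -0.281 in high-fat arrays. Its difference was 1.49 ± 0.61 (limma unadjusted p = 0.0455, adjusted p = 1), or 0.321 when quantile normalized and 1.23 when median centred. The SD of this probe set over the 8 arrays was 1.56e-06. The other RT1-A3 probe set gave 0.153 ± 0.733. RT1-N2 differed by -0.983 ± 0.611 (limma unadjusted p = 0.153, adjusted p = 1). Over all 22 probe sets, 1 of the 4 of RT1-S3 had a smaller p than RT1-N2, with a difference of -1.22 ± 0.544 (limma unadjusted p = 0.061, adjusted p = 1). It stood at -0.828, -0.935, -1.56 and 0.881 in mulberry arrays, against 0.997, 0.592, -0.087 and 0.939 in high-fat arrays.

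The peptide transporter genes also split. Tap2 stood at 1.09, 0.305, 0.368 and 0.651 SD units in mulberry replicates 1 to 4, against -2.15, 0.141, -0.657 and 0.25 in high-fat replicates 1 to 4. All 4 mulberry arrays lay above all 4 high-fat arrays, by a narrow margin between 0.305 and 0.25, and high-fat replicate 1 stood lowest. The difference was 1.21 ± 0.548 (SE; limma unadjusted p = 0.0641, adjusted p = 1, exact permutation p = 0.0286). Quantile normalization gave 0.963, median centring 1.36 and a model holding the hybridization controls 0.566. Those controls were also lowest in high-fat replicate 1, at -1.44, and their part in the result was not tested further. Without any 1 array the difference ran from 1.08 to 1.39.

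Tap1, the partner of Tap2, had no such pattern. Its first probe set stood at -0.0571, -1.11, -1.05 and 0.874 in mulberry arrays, against 1.28, 1.25, -0.681 and -0.499 in high-fat arrays. Its second stood at -0.534, 0.282, 0.883 and 0.397 in mulberry arrays, against -1.94, 0.63, 1 and -0.719 in high-fat arrays. The diets overlapped in both, and the differences were -0.671 ± 0.675 and 0.514 ± 0.792 (limma adjusted p = 1 for each). The signs turned with the scaling, to 1.08 for the first after median centring and to -0.707 for the second after quantile normalization. Tapbp, the tapasin gene, stood at 1.07, -1.62, -0.992 and 0.46 in mulberry arrays, against 0.312, 0.13, -0.612 and 1.25 in high-fat arrays. Its diets overlapped throughout, and its difference was -0.54 ± 0.689 (limma adjusted p = 1), or 0 when quantile normalized and 1.41 when median centred.

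The 3 inducible catalytic subunits had lower means in mulberry arrays, none past the test. Psmb8, the chymotrypsin-like subunit, stood at -0.988, -0.0944, -1.85 and 0.914 in mulberry replicates 1 to 4, against 0.387, 0.848, -0.147 and 0.93 in high-fat replicates 1 to 4. Mulberry replicate 4 lay among the high-fat arrays and mulberry replicates 1 and 3 lay below them. The difference was -1.01 ± 0.604 (limma adjusted p = 1, exact permutation p = 0.229), -0.948 after median centring and 0.49 after quantile normalization. Psmb9 stood at -0.253, -0.197, -1.48 and 0.59 in mulberry arrays, against -0.0623, 1, -1.08 and 1.48 in high-fat arrays. Psmb10, the trypsin-like subunit, stood at 0.206, -0.59, -1.27 and 0.132 in mulberry arrays, against 0.259, 0.0405, -0.83 and 2.05 in high-fat arrays. Replicate 3 was the lowest array of its diet in all 3 genes, and high-fat replicate 4 was the highest of all 8. The differences of Psmb9 and Psmb10 were -0.671 ± 0.671 and -0.762 ± 0.668 (limma adjusted p = 1 for each), and both turned positive after quantile normalization (0.707 and 0.483) and median centring (1.1 and 1.21).

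Each inducible subunit was set against the constitutive one that it replaces, as the difference of their scaled values within an array. Psmb8 minus Psmb5 averaged -0.178 ± 0.601 in mulberry and 0.178 ± 0.609 in high-fat arrays, a difference of -0.355 (exact permutation p = 0.429, adjusted p = 0.514 over 2 pairs, n = 4 each). Psmb10 minus Psmb7 averaged 0.237 ± 0.934 in mulberry and -0.237 ± 0.984 in high-fat arrays, a difference of 0.474 (n = 4 each, exact permutation p = 0.514, adjusted p = 0.514). On the deposited values both differences were smaller than the SD between arrays of a diet. Median centring gave -2.24 for Psmb8 minus Psmb5 (exact permutation p = 0.0571, not adjusted) and 0.523 for Psmb10 minus Psmb7 (exact permutation p = 0.314). Quantile normalization gave -0.288 and -0.266, so the sign of the second pair turned. Psmb8 alone went only from -1.01 to -0.948 under median centring, so the change to -2.24 lay mostly in the Psmb5 values. That scaling gave 30090 of all 31042 probe sets a higher mean in mulberry. Psmb9 could not be set against Psmb6, because the probe set for Psmb6 also names a related gene.

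The cap subunit Psme1 had the most negative difference of the set in its first probe set. This stood at -0.573, -0.762, -1.53 and 0.345 in mulberry replicates 1 to 4, against 0.784, 0.91, -0.548 and 1.37 in high-fat replicates 1 to 4. All 4 mulberry arrays lay below 3 of the high-fat arrays, and high-fat replicate 3 lay among the mulberry arrays. The difference was -1.26 ± 0.531 (SE; limma unadjusted p = 0.0504, adjusted p = 1, exact permutation p = 0.0571), -1.14 after median centring and 0 after quantile normalization. Without any 1 array it ran from -1.57 to -1.13. The second Psme1 probe set, which stood at 0.0131, 0.83, -0.0783 and -1.34 in mulberry arrays and at 0.448, -1.2, 1.66 and -0.336 in high-fat arrays, did not follow the first. Its difference was -0.288 ± 0.713 (adjusted p = 1). Psme2, the other cap subunit, stood at -0.864, -0.69, -0.837 and 1.03 in mulberry arrays, against -0.429, 0.728, -0.637 and 1.7 in high-fat arrays. Its difference was -0.682 ± 0.669 (limma adjusted p = 1), 0.0829 after median centring and 0 after quantile normalization. Mulberry replicate 4 was the 1 mulberry array above the mean in Psme2, as in B2m.

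**Figure D3:**
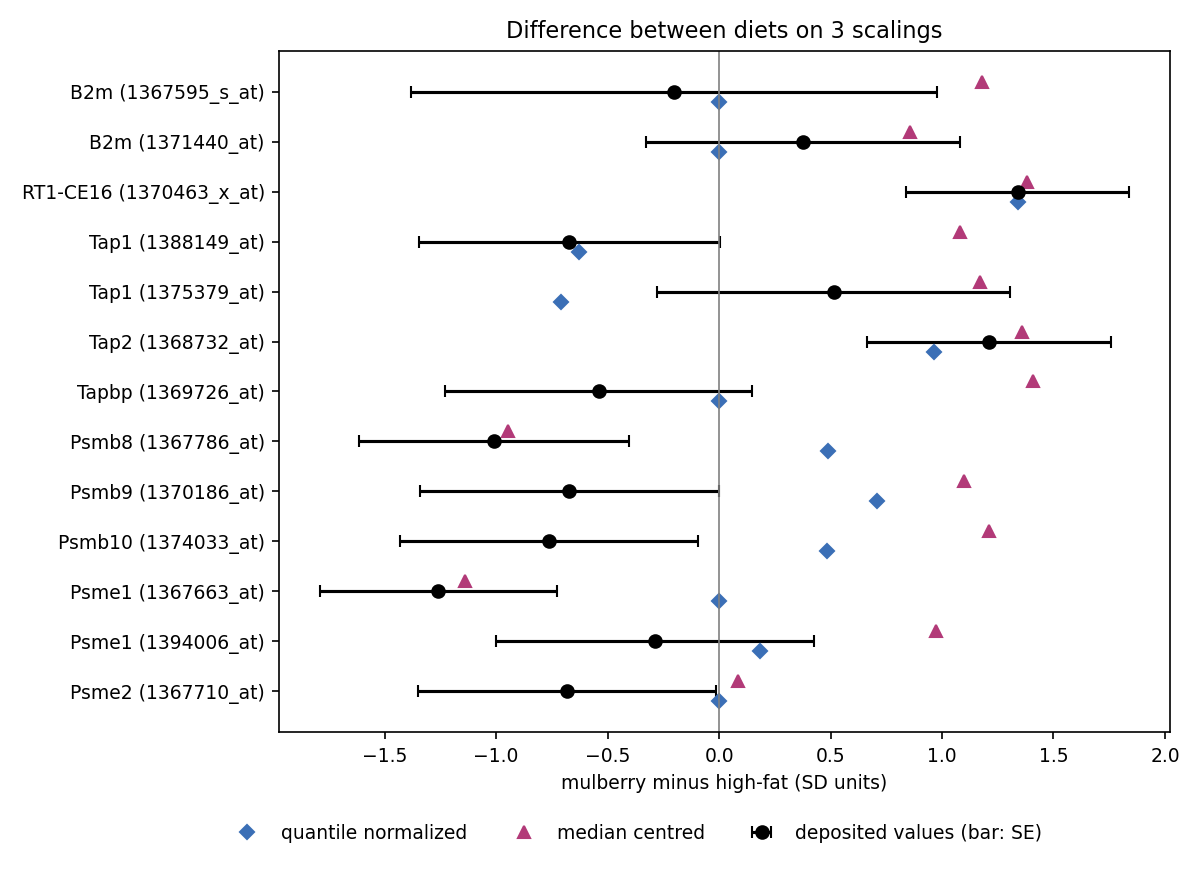
Difference between the diets for each probe set (mulberry minus high-fat, SD units). Black points with bars are the deposited values with their SE, diamonds the quantile normalized and triangles the median centred values. RT1-CE16 and Tap2 lie above 0 on all 3 scalings, while Psmb9, Psmb10 and Tapbp lie below 0 on the deposited values only.

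**Figure D4:**
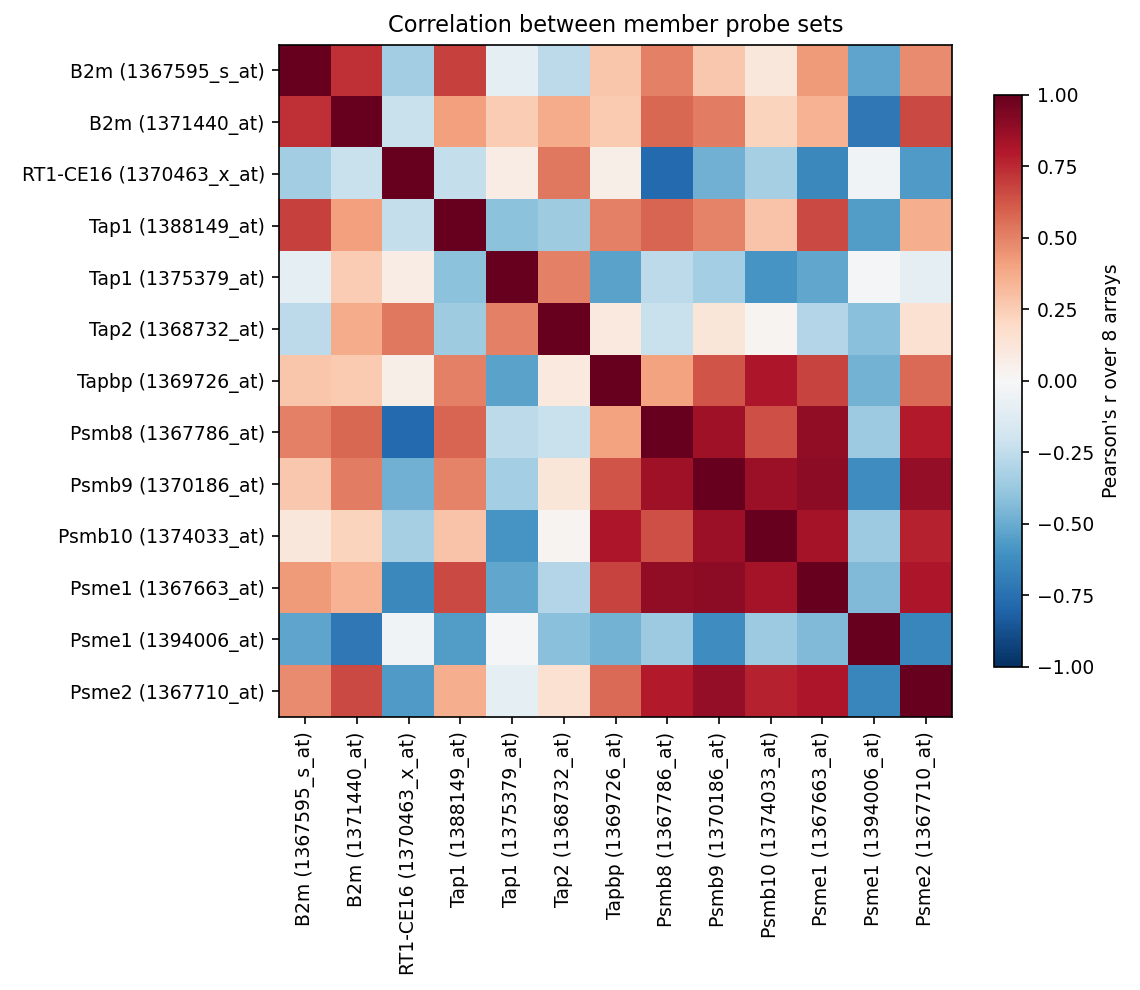
Pearson's r over the 8 arrays for each pair of the 13 probe sets, from -1 (blue) to 1 (red), ordered by role. The block at the lower right holds the proteasome genes, of which Psmb8, Psmb9, Psmb10, Psme2 and the first Psme1 probe set correlate at 0.642 to 0.893, while the second Psme1 probe set lies between -0.366 and -0.656 with them.

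From array to array, 5 of the 6 proteasome probe sets varied in the same direction. Among Psmb8, Psmb9, Psmb10, the first Psme1 probe set and Psme2, Pearson's r over the 8 arrays ran from 0.642 to 0.893 in 10 pairs. With the diet means removed it ran from 0.549 to 0.944, and without the 2 arrays farthest from the median from 0.375 to 0.922. The second Psme1 probe set was left out of these pairs after its values were seen. Its r was -0.367 with Psmb8, -0.622 with Psmb9, -0.366 with Psmb10, -0.442 with the first Psme1 probe set and -0.656 with Psme2. The 10 pairs had a median r of 0.839, and the other 68 pairs of member probe sets, which include the second Psme1 probe set, one of 0.0629. The closest pairs were Psmb9 with Psme1 (r = 0.893, exact permutation p = 0.00313, rho = 0.881, exact permutation p = 0.00724) and Psmb8 with Psme1 (r = 0.888, exact permutation p = 0.00298, rho = 0.857, exact permutation p = 0.0107). After adjustment over all 78 pairs no r passed (lowest adjusted p = 0.0813), and 2 rank correlations did, those of Psmb8 with Psmb9 and with Psme2 (rho = 0.952 and adjusted p = 0.0445 for each, exact permutation). Their r was 0.844 (exact permutation p = 0.00779) and 0.791 (exact permutation p = 0.0187), and without the 2 arrays farthest from the median 0.908 and 0.922. Median centring changed the picture, with r from -0.624 to 0.871 among the 10 pairs and 6 of them above 0. The median r was then 0.204 in the 10 pairs and 0.324 in the other 68, so the order of the medians turned. Psmb8 with Psme1 kept r = 0.861 there, and Psmb8 with Psmb9 had -0.242. Arrays share handling as well as biology, and no batch is given in the labels.

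On the deposited values, the 2 probe sets of B2m, of Tap1 and of Psme1 did not track one another reliably. The 2 B2m probe sets had r = 0.732 over the 8 arrays (exact permutation p = 0.0598) and rho = 0.168 (exact permutation p = 0.695). Without the 2 arrays farthest from the median, r was 0.559. The Tap1 pair had r = -0.412 (exact permutation p = 0.321) and rho = -0.405 (0.327), and -0.239 without 2 arrays. The Psme1 pair had r = -0.442 (exact permutation p = 0.273) and rho = -0.429 (0.299), and -0.635 without 2 arrays. None of the 3 passed adjustment over the 78 pairs (adjusted p from 0.311 to 0.544 for r). After median centring r was 0.148 for the B2m pair, 0.954 for the Tap1 pair and -0.719 for the Psme1 pair.

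Outside the set, the genes most like each member were found by the highest r over the 8 arrays, among 20824 or 20825 probe sets of other single genes. With so many searched, high values are found by the search itself and no test is given. RT1-A, a class I heavy chain gene, came nearest to Psmb8 at 0.967, before Napg at 0.958 and Etfdh at 0.957. RT1-CE16 was nearest to Tnk2 (0.959), Dmrtc1a (0.946) and RT1-Bb, a class II beta chain gene (0.942). Psmb10 was nearest to Mal (0.998), Cybb (0.995), which encodes a subunit of the phagocyte oxidase, and Smpdl3a (0.993). Psmb9 was nearest to Ppp2r1b (0.988), Cct7 and Atp6v1h (0.985 each), Psme1 to Eif2s2 (0.98), Cd47 (0.977) and Cd53 (0.976), and Psme2 to Cox7c (0.98), Ssr3 (0.977) and C1h11orf98 (0.976). For Tap2 these were Lrrc51 (0.971), Ms4a6bl1 (0.97) and Slc31a2 (0.962), for Tap1 Tsc22d4 (0.966), C4h2orf42 (0.959) and Sec16a (0.948), for Tapbp Snapc5 (0.972), Slc16a1 (0.965) and Mllt3 (0.961), and for B2m Mkrn1 (0.944), COX1 (0.94) and Atxn1l (0.937).

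The wider pathway was counted with 1 probe set a gene, the one of highest mean, on which 50.9% of all 14217 genes had a lower mean in mulberry and the median difference was -0.019. On this basis 8 of the 10 members were lower (median -0.671). Beside the list counts that follow, 13840 of all 31042 probe sets were lower under quantile normalization and 952 under median centring. Of 20 other measured proteasome core, cap, assembly and inhibitor genes, 17 were lower (median -0.716, with 3 lower under quantile normalization and 0 under median centring). The first by unadjusted p were Psmb7, the constitutive counterpart of Psmb10, at -1.24 ± 0.54 and Psma7, an alpha ring subunit, at -1.09 ± 0.591. Psmb7 was 0.749 when quantile normalized and 0.687 when median centred, and Psma7 was 0 and 1.1. Of 15 other loading and peptide-trimming genes, 4 were lower and 11 higher (median 0.0976, with 2 lower on either other scaling). Erap1, which trims peptides in the endoplasmic reticulum, was at -1.1 ± 0.582 (0.923 when quantile normalized), and the aminopeptidase gene Npepps at 0.9 ± 0.642. None of these genes passed the limma test (adjusted p = 1 for each), and 0 of the 15 or the 20 had an unadjusted p under 0.05, against 4.15% of all genes.

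Of 22 measured genes of interferon gamma signalling and response, 16 were lower in mulberry, against 50.9% of all genes. Their median was -0.448, with 10 lower under quantile normalization and 6 under median centring. By limma 2 had an unadjusted p under 0.05, against 4.15% of all genes. Irf8, a transcription factor of myeloid and B cells, ranged from -1.03 to -0.341 in mulberry arrays, against -0.298 to 1.97 in high-fat arrays. Its diets did not overlap, with mulberry below, which held for 0.915% of all probe sets. Its difference was -1.27 ± 0.526 (limma unadjusted p = 0.0471, adjusted p = 1), -0.986 when quantile normalized and -1.24 when median centred. Jak1, a kinase of the interferon receptors, differed by -1.26 ± 0.529 (limma unadjusted p = 0.0492, adjusted p = 1), or 0 when quantile normalized and -0.455 when median centred.

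**Figure D5:**
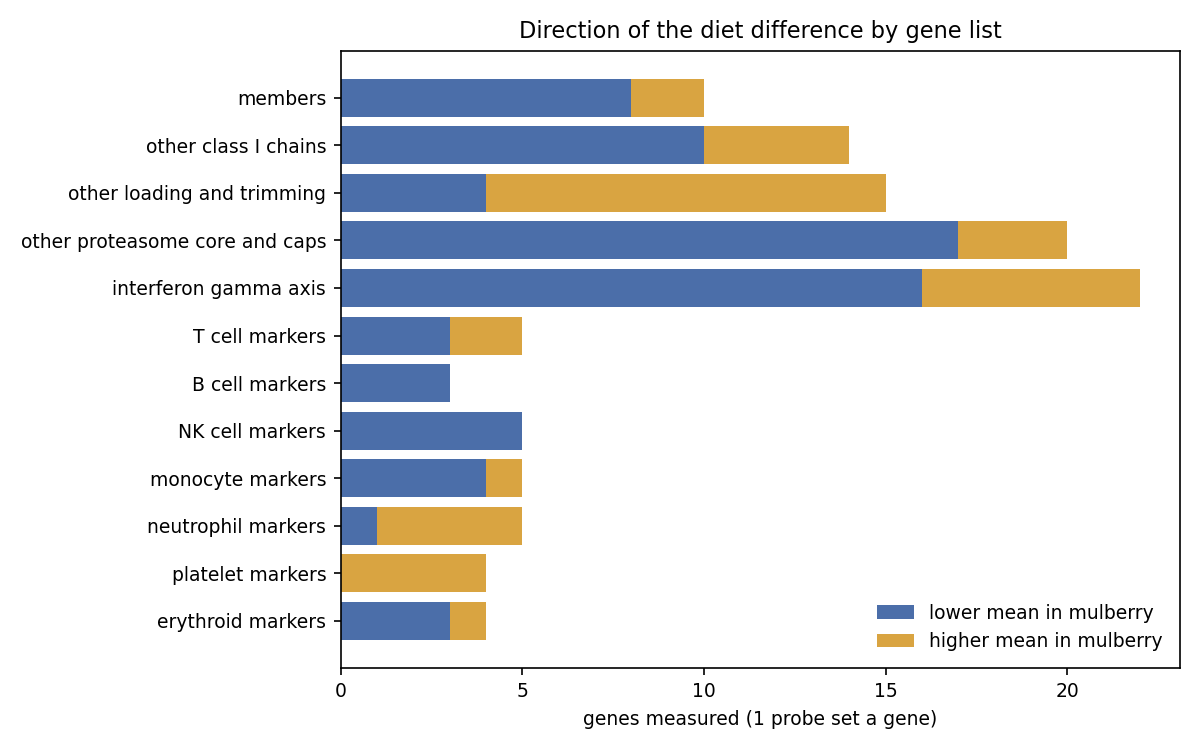
Number of measured genes with a lower (blue) or higher (yellow) mean in mulberry than in high-fat arrays, for the 10 members, 4 lists of the wider pathway and 7 lists of blood cell markers. In the proteasome list 17 of 20 genes were lower, and in the natural killer (NK) cell list 5 of 5.

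Mean levels of blood cell markers also differed between the diets, none past the test. Natural killer markers were lower in 5 of 5 genes on all 3 scalings, with a mean score from -0.727 to -0.0703 in mulberry arrays, against -0.48 to 1.98 in high-fat arrays. Of these, Klrk1 differed by -0.987 ± 0.61 and Gzmb by -0.918 ± 0.625. T cell markers were lower in 3 of 5 genes, and in 0 when quantile normalized or median centred (-0.922 to 0.23 in mulberry, -0.288 to 1.04 in high-fat arrays), among them Cd3g at -1.4 ± 0.481 (limma unadjusted p = 0.0231, adjusted p = 1, 0 when quantile normalized and 0.949 when median centred) and Cd3d at -1.11 ± 0.58 (0.57 after median centring). B cell markers were lower in 3 of 3, and in 2 when quantile normalized or median centred (-0.937 to 0.364 in mulberry, -1.11 to 1.23 in high-fat arrays), with Ms4a1 at -0.955 ± 0.617 and Cd79b at -0.749 ± 0.658. Monocyte markers were lower in 4 of 5 (-1.12 to 0.467 in mulberry, -0.622 to 1.93 in high-fat arrays), with Cd68 at -0.791 ± 0.65 and Lyz2 at -0.712 ± 0.664 (0 after quantile normalization). For Cd68, 1 high-fat array stood at 2.27 and the others from -0.518 to 0.315.

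Neutrophil markers were lower in 1 of 5, in 3 when quantile normalized and in 0 when median centred (-0.616 to 1.14 in mulberry, -1.62 to 0.503 in high-fat arrays), with Cxcr2 at 0.902 ± 0.629 and S100a8 at 0.688 ± 0.668 (-0.633 after quantile normalization). Platelet markers were higher in 4 of 4, and in 2 when quantile normalized, with none lower (-0.813 to 1.49 in mulberry, -1.54 to 0.411 in high-fat arrays), with Itga2b at 1.24 ± 0.538 (0 after quantile normalization) and Gp9 at 0.483 ± 0.693. Erythroid markers were lower in 3 of 4, and in 1 when quantile normalized or median centred (-0.504 to 0.604 in mulberry, -0.926 to 0.519 in high-fat arrays), with Epb42 at -0.394 ± 0.702 and Slc4a1 at 0.325 ± 0.707. No marker was at 0 in the deposited values, which give no detection calls. The mean of the 13 T, B and natural killer markers was -0.314 ± 0.242 in mulberry and 0.314 ± 0.61 in high-fat arrays (SD; exact permutation p = 0.143, n = 4 each). With this mean in the model, 3 of the 13 member probe sets had a lower mean in mulberry, against 9 without it. Of all 31042 probe sets, 15040 were lower with it and 14670 without it. The part of lymphocytes in the member values was not tested. In this model RT1-CE16 was at 1.24, Tap2 at 1.62, Psmb8 at -0.327 and the first Psme1 probe set at -0.32. The second Psme1 probe set was at -1.59, against -0.288 without the markers, and was the most negative member there.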

How the data were processed

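Whole-blood RNA was labelled from 200 ng of total RNA for an Affymetrix rat array, per the labels. The authors deposited 1 table of values, taken as log2 since all arrays run over one range of 5.17 to 15.26 with no zero. How they were summarised and normalized is not stated. Of 31099 rows, 57 manufacturer controls were left out. Gene names came from the platform annotation: 20826 probe sets named 1 gene, 436 several and 9780 were unnamed here. The member genes matched RefSeq in all 10 cases, and promoter sequences are RefSeq's (GRCr8).

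The 31042 probe sets were fitted together with limma 3.58.1 in R 4.3.3 (lmFit, eBayes, 2 diets, no covariate, two-sided, Benjamini-Hochberg, threshold 0.05), and differences and their SE were divided by the SD over the 8 arrays. Single values were also tested by exact permutation over 70 assignments, and correlations over 40320 pairings (Python 3.11.15, numpy 2.4.6). The few arrays limit the precision. In simulated data of 31042 probe sets, 200 were moved in the same run, by 4, 8, 16 or 32 within-diet SDs. The fit called 38% of those moved by 4 and 96% at 8, with 8 unmoved ones called. The adjustment is stricter when fewer probe sets are moved, so these shares do not carry over to the real data.

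Alternatives were quantile normalization, median centring (both rounded to 9 decimals), brighter probe sets only, limma with trend and robust variance, an ordinary linear model, the within-diet SD as unit, the 18 hybridization controls or 13 lymphocyte markers as covariate, a replicate block, leaving out each array, and for genes the mean of the probe sets. The main fit did not pair arrays by replicate number. The r of same-numbered deviations was -0.0462, -0.0505, 0.246 and 0.163 for replicates 1 to 4. For unlike numbers it ran from -0.199 to 0.147, below the values of replicates 3 and 4. Whether these arrays were paired was not tested further. The members, lists, tests and alternatives were chosen with earlier results of these data known. Every member was named. From each other list, the 2 genes of smallest unadjusted p were named, and for each member the 3 single-gene probe sets of highest r. RT1-CE12, RT1-T24-3, RT1-S3 and the second RT1-A3 probe set, where not named by that rule, were chosen after their values were seen. The planned comparison of Psmb9 with Psmb6 was not made, since no probe set names Psmb6 alone.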

Additional observations from a re-analysis of the deposited data

Results flagged for a closer look

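In 26 groups of 4 arrays (13 probe sets in 2 diets), 3 had an array far from its fellows, its gap to the nearest being past Dixon's critical share of the group's range. Chance alone gives this in about 1 group in 20. Mulberry replicate 4 stood at 2.27 SD units for the second B2m probe set, with the next mulberry array at -0.359, and at 1.03 for Psme2, with the next at -0.69. High-fat replicate 4 stood at -0.905 for RT1-CE16, the lowest of that diet, with the next at -0.622. Without mulberry replicate 4, the differences between diets were -0.751 for that B2m probe set and -1.16 for Psme2. The reason for these positions was not tested.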

How the results depend on the processing

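No member passed under any alternative with a test, nor did any gene of the wider class I, proteasome and interferon lists. The count of all probe sets past the threshold was 0 by limma (1352 at an unadjusted p under 0.05) and 12 after quantile normalization, which gave 8465 probe sets equal diet means. The number of members with a lower mean was 9 on the deposited values, 2 after quantile normalization, 2 after median centring and 3 with lymphocyte markers in the model, and 8 to 9 when each array was left out. Of all 31042 probe sets, 14670 were lower on the deposited values and 13840 after quantile normalization. Median centring left 952 lower, and the model with lymphocyte markers 15040. By gene, 8 of 10 members were lower, and 7 when probe sets of 1 gene were averaged.

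Quantile normalization turned the sign of Tap1 (second, -0.707), Psmb8 (0.49), Psmb9 (0.707), Psmb10 (0.483), Psme1 (second, 0.182) and of Psmb10 against Psmb7 (-0.266). Median centring turned B2m (first, 1.18), Tap1 (first, 1.08), Tapbp (1.41), Psmb9 (1.1), Psmb10 (1.21), Psme1 (second, 0.975) and Psme2 (0.0829). The hybridization controls in the model turned B2m (first, 0.761) and Tap1 (second, -0.261). The lymphocyte markers turned B2m (first, 0.3), Tap1 (first, 0.0679), Tapbp (0.359), Psmb9 (0.505), Psmb10 (0.227) and Psme2 (0.384). The cause was not tested. Median centring shifts nearly all probe sets upward in mulberry by construction (30090 of 31042 had a higher mean), and quantile normalization sets differences finer than its steps to 0.

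Leaving out 1 array gave -1.36 to 0.143 for B2m (first, 0.102 without mulberry replicate 1, 0.143 without mulberry replicate 2 and 0.0273 without high-fat replicate 1), -0.751 to 0.615 for the other B2m probe set, -0.0711 to 0.947 for Tap1 (second, lowest without high-fat replicate 1) and -0.778 to 0.272 for Psme1 (second, 0.122 without mulberry replicate 4 and 0.272 without high-fat replicate 3). For Psmb8 against Psmb5 it gave -0.594 to -0.17, and for Psmb10 against Psmb7 0.0692 to 0.769. RT1-CE16, Tap2, Psmb8, Psmb9, Psmb10, Tapbp, Psme2 and the first probe sets of Tap1 and Psme1 kept their sign without any array, but not their size. The ranges were -1.01 to -0.112 for Tapbp (without mulberry replicates 1 and 2), -1.17 to -0.333 for Psmb9 (without high-fat and mulberry replicate 3), -1.15 to -0.34 for Psmb10 (without high-fat replicates 3 and 4), -1.16 to -0.291 for Psme2 (without mulberry and high-fat replicate 4), -1.06 to -0.387 for Tap1 (first, without mulberry replicate 4 and high-fat replicate 1) and -1.48 to -0.781 for Psmb8 (without mulberry replicates 4 and 3), each naming the single array left out at either end. With the replicate block 0 members passed, as without it. The block cannot change the count of 9 lower members, because both diets hold the same replicate numbers. The exact test cannot give less than 0.0286 with 4 arrays a diet, and the values give no signal over background.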
